A study of Sus scrofa with 9 samples.

Results

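The antioxidant and glutathione enzymes were followed in testis biopsies of boars on single-colour Agilent arrays. The set was taken by gene symbol (superoxide dismutases, catalase, glutathione peroxidases, peroxiredoxins, thioredoxin proteins, glutathione S-transferases, the enzymes that make and recycle glutathione, NQO and haem oxygenase, aldo-keto and carbonyl reductases, and metallothioneins). It held 46 of the 6821 named genes on the array, measured by 150 probes, and each gene was represented by its probe with the highest mean in the deposited value table. For 4 genes (GCLC, GPX2, GPX5 and CBR2) that table listed no probe, and the brightest probe of the scanner files was used.

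There were 9 arrays, 3 of each group. The control arrays came from boars with normal semen and a normal karyotype. The paper describes 3 fertile control boars with 3 RNA extractions each, and also calls the controls a pool. Which of these boars each control array held, and whether it held 1 or several, is not stated in the sources used here. The t(1;14) arrays came from 1 Landrace × Duroc crossbred boar that carried a reciprocal translocation between chromosomes 1 and 14 and was oligo-astheno-teratospermic. The oligospermic arrays came from 1 boar with a normal karyotype and a low sperm count. Since 2 of the groups are 1 animal each, every p-value here compares arrays and not populations of animals. A biopsy holds germ cells, Sertoli cells, Leydig cells and vessels together, so fewer cells of a type and less RNA per cell cannot be told apart.

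Cells turn superoxide into hydrogen peroxide with superoxide dismutases, and remove the peroxide with catalase, glutathione peroxidases and peroxiredoxins. Glutathione and thioredoxin supply the electrons and are returned to the reduced form by NADPH-dependent reductases, while glutathione S-transferases, NQO1 and the aldo-keto and carbonyl reductases take care of reactive electrophiles, quinones and carbonyls. In the testis, steroid-making Leydig cells are rich in several of these enzymes, and developing sperm use GPX4 and testis-specific thioredoxins to build their structures.

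The array reads each transcript through a 60-base probe. The first 30 bases of the probes behind the largest differences are shown here, 5′ to 3′ in lower case, so that the transcript each value stands for can be traced.
NQO1: gccaagtagcctctttgacctaaacttcca
GPX3: tgacctggtggcattagactcaccccgtgt
AKR1C4: ttagaggatccagtcttaaatgctattgcc
AKR1CL1: aagtgtaaagatgcaggcttgaccaaatcc
GSR: catctctgctaagagttcatagttcaagga
GSTO1: tggggacaggagtcagcaactatgatgtac
GSTA2: tagcaatgaagtgtttacctaaatgtagat
PRDX3: ccccatccctgcggtttatagtttatggag
TXNDC8: gaagaaaagaattcagaactcatgtaagct
No probes of different genes in the set shared a run of 15 or more bases. The closest pair within the AKR1C family (AKR1C1 and AKR1C4) was identical at 29 of 46 overlapping bases, and within the GSTA family (GSTA1 and GSTA2) at 24 of 56.

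Of the 46 genes, 43 passed the filter (well above background without an outlier flag on at least 2 of 3 arrays of a group) and 42 were well above background on all 9 arrays. GPX2, GPX5 and CBR2 did not pass and were not tested. GPX6 passed through the t(1;14) arrays alone and did not pass the test in any comparison. Between 37087 and 40632 probes per array were well above background, the control arrays correlated with each other at 0.976 to 0.981, and with the t(1;14) arrays at 0.926 to 0.949. Levels below are log2 of the quantile-normalized signal, and differences are log2 fold changes with their standard error (SE).

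Between t(1;14) and control, 24 of the 43 members passed an adjusted p of 0.01 in limma, 22 of them higher and 2 lower in t(1;14). Of all 5774 named genes tested with 1 probe each, 43.2% passed the same threshold, 20.9% higher and 22.3% lower, and of all 41105 probes 38.6% passed. The median log2 fold change was 0.58 over the members and 0.07 over the named genes. A log2 fold change of at least 2 was also met by 8 members, all higher in t(1;14), against 1.58% of named genes higher and 5.51% lower. The groups did not overlap for 32 members, a state met by 65.1% of named genes. Each slide held 1 array of each group, and the 24 called members kept their direction within every slide that could be compared (for CAT 2 of the 3).

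**Figure D1:**
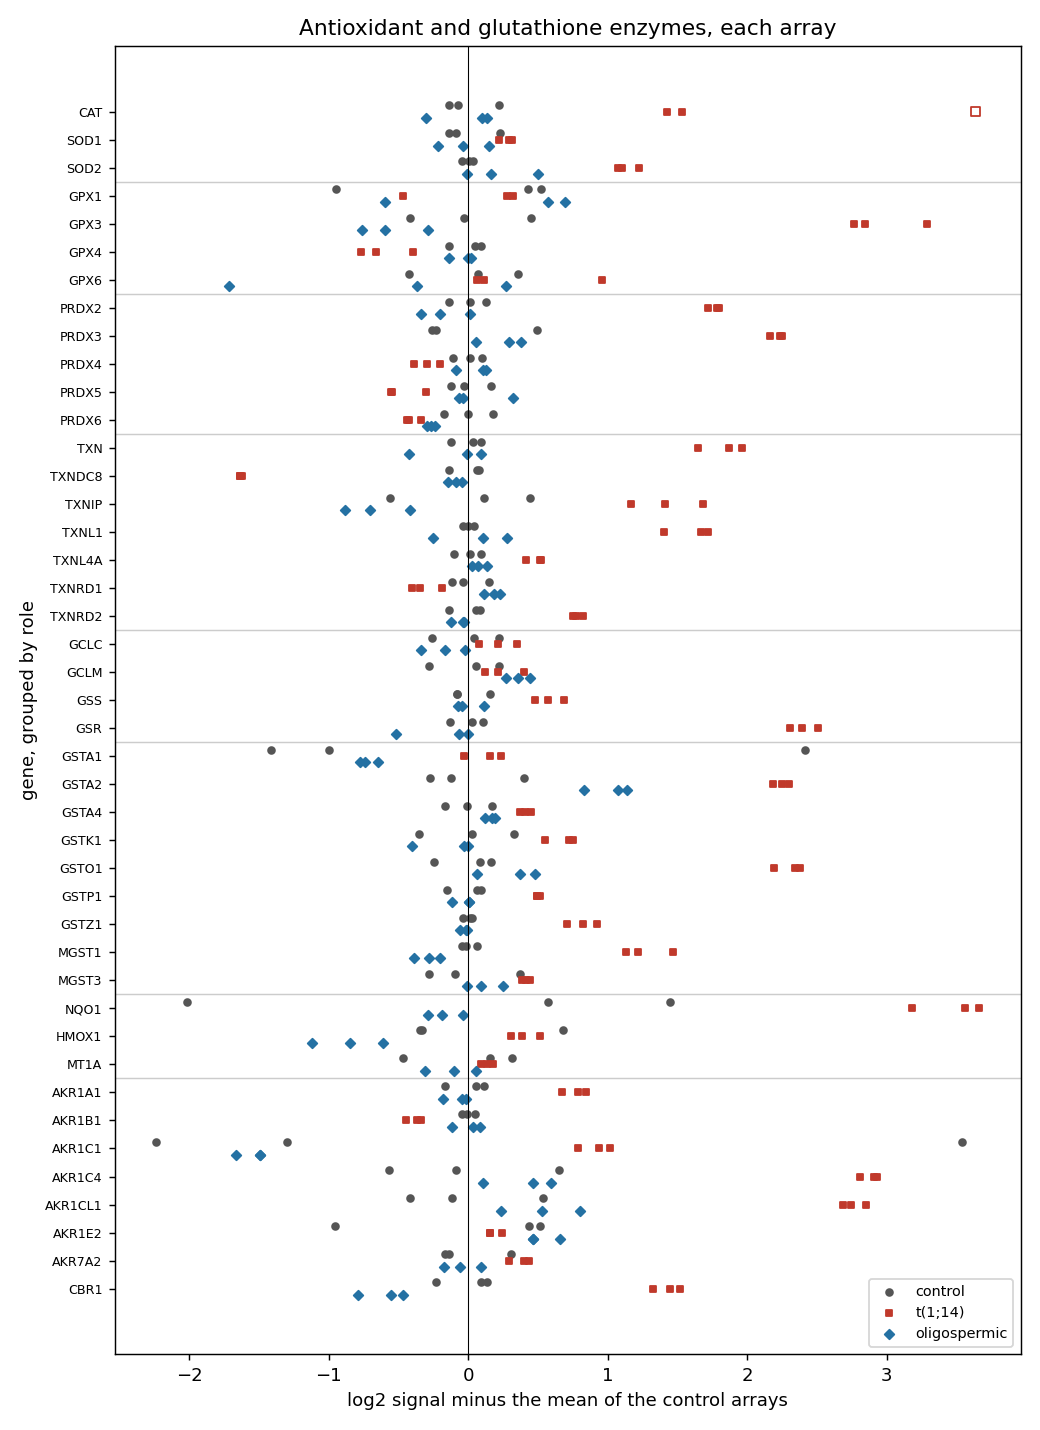
Log2 signal of each of the 43 tested members on each array, minus the mean of the 3 control arrays, with genes grouped by role. The hollow square is the CAT spot with an outlier flag, which was left out of the fit. The t(1;14) squares lie to the right of the controls for 36 of the 43 genes by their mean.

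Of the 3 enzymes that act first on superoxide and peroxide, 2 rose in t(1;14) and 1 did not pass the test. CAT, the catalase that splits hydrogen peroxide, read 11.14, 10.78 and 10.85 in the control arrays, 12.35 and 12.46 in t(1;14) arrays 1 and 3, and 11.06, 11.02 and 10.62 in the oligospermic arrays. Its spot on t(1;14) array 2 read 14.56 and carried the scanner software's outlier flag, so it was left out. CAT then rose by 1.48 ± 0.18 (SE, limma adjusted p = 0.0004), and by 2.20 ± 0.52 with the flagged spot kept. Each of the 9 probes to CAT passed, with differences of 0.76 to 1.57. SOD2, the mitochondrial superoxide dismutase, read 10.37, 10.29 and 10.34 in control and 11.40, 11.56 and 11.44 in t(1;14). It rose by 1.13 ± 0.14 (limma adjusted p = 0.00024), and 6 of its 7 probes passed the test. SOD1, the cytosolic enzyme, read 14.90, 14.53 and 14.58 in control and 14.96, 14.98 and 14.88 in t(1;14). Its brightest probe gave 0.27 ± 0.14 and did not pass, while its 4 other probes gave 0.74 to 1.08 and all passed.

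Of the 4 glutathione peroxidases tested, GPX3 rose, GPX4 fell, and GPX1 and GPX6 did not pass. GPX3, the secreted peroxidase, read 10.23, 9.36 and 9.75 in control, 12.55, 13.07 and 12.63 in t(1;14) and 9.49, 9.18 and 9.02 in the oligospermic arrays. Every t(1;14) array was above every other array, and GPX3 rose by 2.97 ± 0.24 (limma adjusted p = 2.7e-05). GPX4, which reduces lipid peroxides and forms part of the sperm midpiece, read 16.28, 16.09 and 16.32 in control and 15.57, 15.83 and 15.46 in t(1;14). Its spots were saturated on all 3 control and all 3 oligospermic arrays and on no t(1;14) array. Saturation can only hide part of the fall, and GPX4 was lower in t(1;14) than in control by an estimated 1.52-fold or more. The estimate still has its own error (-0.61 ± 0.13, limma adjusted p = 0.0041). It ranged from -1.05 to -0.49 over the alternatives, and the call was lost in 6 of them. A GPX4 probe that was not saturated on any array fell by 1.16 (limma adjusted p = 8.3e-05).

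GPX1, the main cytosolic glutathione peroxidase, gave no clear value on its brightest probe, which read 11.97, 13.35 and 13.44 in control, 13.20, 12.45 and 13.24 in t(1;14) and 12.33, 13.61 and 13.49 in the oligospermic arrays. The low array of each group was the one on slide 1, and the difference was 0.04 ± 0.48. A second probe that shares 48 bases with it had the same low arrays and gave 0.34. Their first 30 bases are shown because the pair stands apart from the rest, with the shared run in capitals.
GPX1, brightest probe: AGTGCCCCCTCCTACCCCTGCTGCTTGGCA
GPX1, second probe: agcagtgcctagAGTGCCCCCTCCTACCCC
The other 4 GPX1 probes gave 0.91 to 1.14 and all passed the test.

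Of the 5 peroxiredoxins, which reduce peroxides through a reactive cysteine, 2 rose and none fell past the threshold. PRDX3, the mitochondrial form, read 12.28, 11.53 and 11.55 in control, 13.96, 14.04 and 14.02 in t(1;14) and 12.17, 12.08 and 11.84 in the oligospermic arrays. It rose by 2.22 ± 0.20 (limma adjusted p = 5e-05), and its 15 probes rose by 1.66 to 2.30. PRDX2, a cytosolic form, rose by 1.77 ± 0.12. PRDX4, the form of the endoplasmic reticulum, read 14.53, 14.33 and 14.45 in control and 14.14, 14.24 and 14.05 in t(1;14), a difference of -0.29 ± 0.11 that did not pass (limma adjusted p = 0.052). PRDX5 gave -0.47 ± 0.15 and PRDX6 gave -0.40 ± 0.11, neither past the threshold. Under alternative settings PRDX4 passed as lower in 2, PRDX5 in 3 (slide as a block among them) and PRDX6 in 5, and 1 of the 4 PRDX4 probes passed as lower (limma adjusted p = 0.0056). The 6 PRDX6 probes disagreed, with 4 of them lower in t(1;14) and 2 higher, by 0.54 and 0.80.

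Of the 7 members with a thioredoxin name 5 rose and 1 fell, beside 20.9% higher and 22.3% lower over all named genes. TXN, thioredoxin itself, read 10.23, 10.18 and 10.02 in control and 11.79, 12.01 and 12.11 in t(1;14), and rose by 1.83 ± 0.16 (limma adjusted p = 3.7e-05). TXNL1, a thioredoxin-like protein of the proteasome, rose by 1.60 ± 0.15, TXNIP, which binds and restrains thioredoxin, by 1.42 ± 0.26, and TXNRD2, the mitochondrial reductase, by 0.78 ± 0.10. TXNL4A, which carries the family name but works in splicing, rose by 0.48 ± 0.10, a call lost in 8 alternatives. The reductase of the cytosol, TXNRD1, read 12.69, 12.77 and 12.95 in control and 12.40, 12.61 and 12.46 in t(1;14), a difference of -0.31 ± 0.11 that did not pass (limma adjusted p = 0.042). It passed with scaling to the 75th percentile (-0.48, limma adjusted p = 0.0083). TXNDC8, a thioredoxin of the developing sperm, read 14.74, 14.75 and 14.54 in control, 13.04, 13.04 and 13.06 in t(1;14) and 14.59, 14.54 and 14.63 in the oligospermic arrays. It fell by 1.63 ± 0.10 on the log2 scale (limma adjusted p = 7.3e-06).

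Of the 4 genes of glutathione synthesis and recycling, 2 rose. GSR, the reductase that regenerates glutathione, read 8.83, 8.91 and 8.67 in control, 11.11, 11.20 and 11.31 in t(1;14) and 8.80, 8.74 and 8.29 in the oligospermic arrays, a rise of 2.40 ± 0.15 (limma adjusted p = 9.1e-06). GSS, which completes the tripeptide, read 7.84, 7.84 and 8.08 in control and 8.40, 8.49 and 8.61 in t(1;14), a rise of 0.58 ± 0.12 whose call was lost in 4 alternatives. The catalytic subunit of the rate-limiting ligase, GCLC, was near the lower end of the signals (4.71, 4.41 and 4.89 in control, 4.89, 5.02 and 4.75 in t(1;14)) and gave 0.21 ± 0.15. Its modifier subunit GCLM read 8.44, 8.28 and 7.95 in control and 8.34, 8.62 and 8.44 in t(1;14). The chosen GCLM probe gave 0.24 ± 0.15 and its other probes gave 0.99 and 0.75, of which the first passed the test.

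Among the 9 glutathione S-transferases, which attach glutathione to electrophiles, 5 rose and none fell. GSTO1, an omega-class enzyme, read 11.59, 11.67 and 11.26 in control and 13.70, 13.85 and 13.88 in t(1;14), a rise of 2.30 ± 0.15 (limma adjusted p = 1.1e-05). GSTA2, an alpha-class enzyme, read 12.65, 12.80 and 13.33 in control, 15.17, 15.11 and 15.23 in t(1;14) and 14.07, 14.00 and 13.75 in the oligospermic arrays, so that the 3 groups did not overlap. It rose by 2.25 ± 0.18 in t(1;14) (limma adjusted p = 2.4e-05). MGST1, a membrane-bound form, rose by 1.27 ± 0.12 on its brightest probe, the smallest value of its 8 probes, which reached 2.60. GSTZ1 rose by 0.82 ± 0.10 and GSTP1, the pi-class enzyme, by 0.50 ± 0.10, the latter call being lost in 7 alternatives. GSTK1 (0.67), GSTA4 (0.41), MGST3 (0.41) and GSTA1 (0.12) did not pass. MGST3 passed as higher in 4 alternatives, GSTK1 and GSTA4 in 2 each.

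NQO1, which reduces quinones by 2 electrons at a time, had the largest difference of the set over all arrays. It read 9.88, 10.76 and 7.30 in control, 12.49, 12.98 and 12.87 in t(1;14) and 9.27, 9.13 and 9.03 in the oligospermic arrays, and rose by 3.47 ± 0.73 (limma adjusted p = 0.0043). Its 3 probes gave 3.37 to 3.55. Control array 3 was the lowest, and without it NQO1 rose by 2.46, less than GPX3 (2.96), AKR1C4 (2.84) and AKR1CL1 (2.71) in the same fit. Within slides the difference ranged from 2.12 to 5.19. The call was lost in 4 alternatives, with adjusted p of up to 0.016 in limma, 3 of them leaving out 1 t(1;14) array each. HMOX1, which degrades haem, read 9.46, 8.43 and 8.44 in control, 9.08, 9.29 and 9.16 in t(1;14) and 8.16, 7.93 and 7.66 in the oligospermic arrays, and the metallothionein MT1A was between 12.77 and 13.56 on all arrays. Neither passed the test against control (0.40 ± 0.27 and 0.13 ± 0.20). Without control array 1, the highest of its group, HMOX1 passed (0.74, limma adjusted p = 0.0058).

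**Figure D2:**
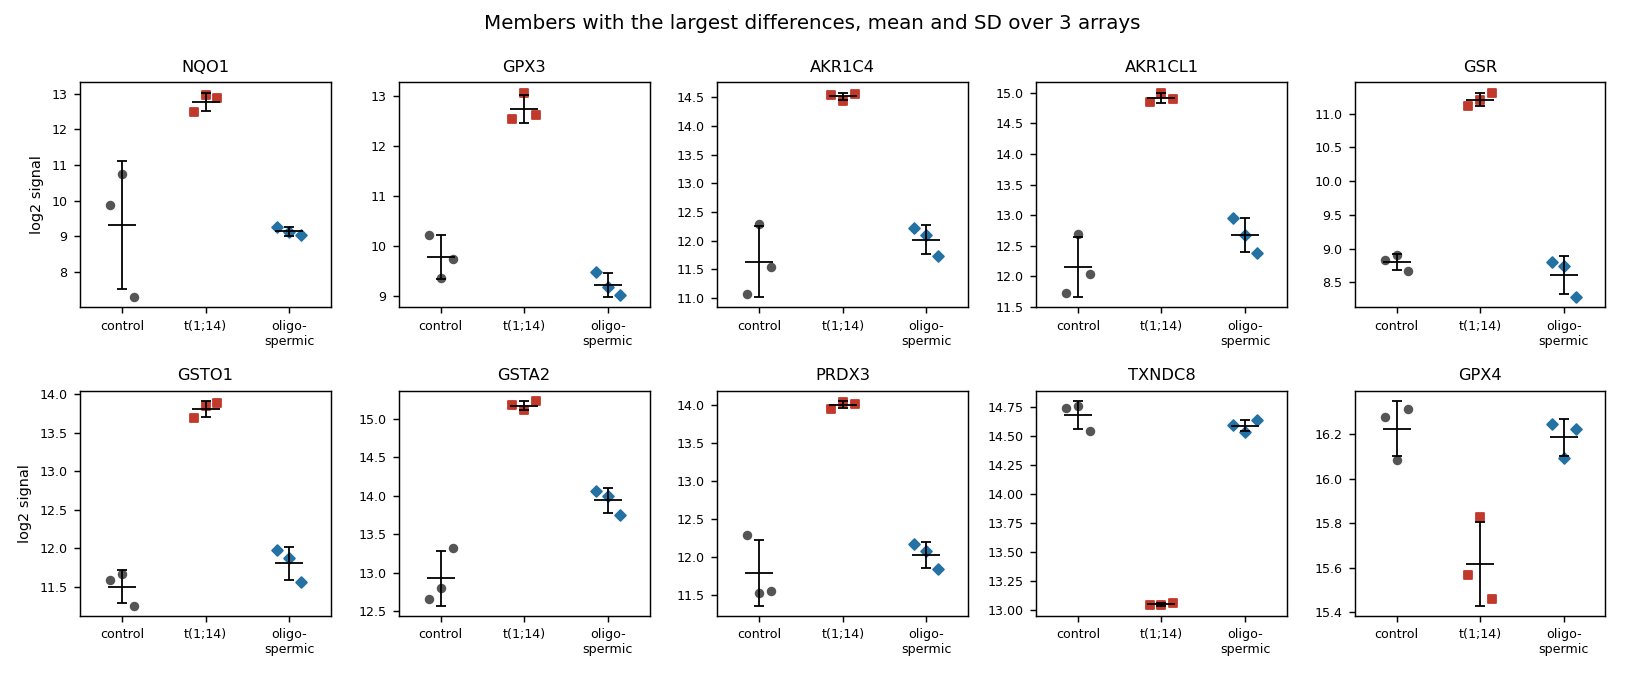
Log2 signal on each array of the 8 members with an adjusted p of at most 0.01 and a log2 fold change of at least 2 between t(1;14) and control, and of the 2 members that fell (TXNDC8 and GPX4). Bars are the mean and SD of 3 arrays. All 3 t(1;14) arrays lie outside the range of the other 6 in every panel.

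Of the 8 aldo-keto and carbonyl reductases tested, 4 rose. AKR1C4, a hydroxysteroid dehydrogenase, read 11.07, 12.29 and 11.54 in control and 14.54, 14.44 and 14.56 in t(1;14), a rise of 2.88 ± 0.28 (limma adjusted p = 6.7e-05). AKR1CL1, a relative of it, read 11.73, 12.69 and 12.04 in control and 14.84, 15.003 and 14.90 in t(1;14), a rise of 2.76 ± 0.24. CBR1, a carbonyl reductase, rose by 1.43 ± 0.14 and AKR1A1, the aldehyde reductase, by 0.77 ± 0.11. AKR1B1 (-0.38 ± 0.10), AKR7A2 (0.38), AKR1E2 (0.18) and AKR1C1 (0.91) did not pass. AKR7A2 passed without control array 1 (0.53, limma adjusted p = 0.0069). AKR1B1 passed as lower in 8 alternatives, the deposited log2 values among them, and on its second probe (-0.55, limma adjusted p = 0.0051). Control array 3 was the lowest for AKR1E2 (7.45 against 8.92 and 8.84), which gave -0.29 without it.

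In AKR1C1 and GSTA1 control array 1 stood far above the other control arrays, and these genes were singled out after their values were seen. AKR1C1, a second hydroxysteroid dehydrogenase, read 12.86 in control array 1 against 8.02 and 7.09 in the other control arrays, 10.26, 10.11 and 10.34 in t(1;14) and 7.83, 7.84 and 7.66 in the oligospermic arrays. A second probe to the same transcript read 12.14 in that array and 1.51 to 5.52 in all others. GSTA1 read 12.79 in control array 1, 9.38 and 8.97 in the other control arrays and 10.35 to 10.62 in t(1;14). Without control array 1, AKR1C1 was higher in t(1;14) by 2.68 and GSTA1 by 1.32, and both passed the test.

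**Figure D3:**
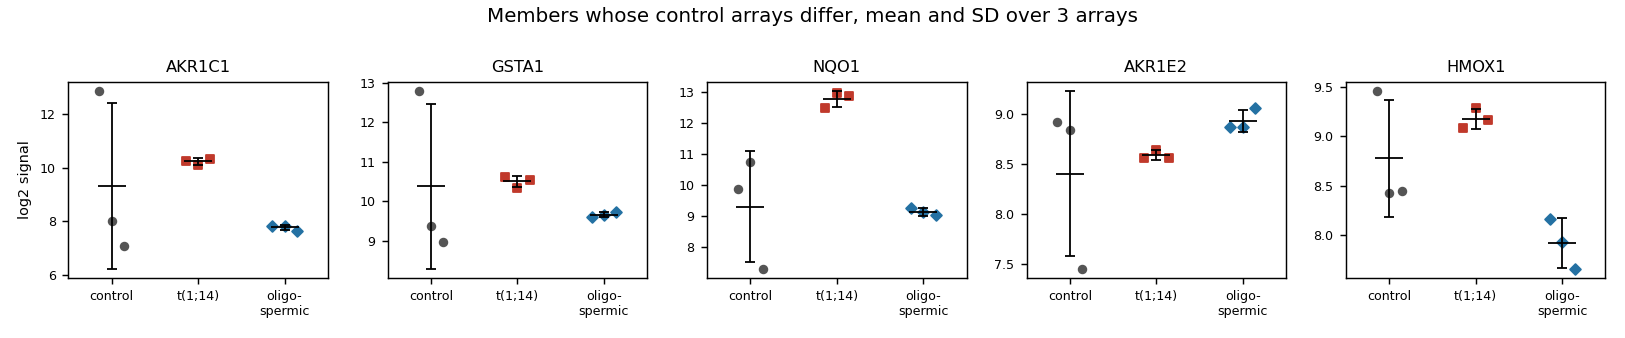
Log2 signal on each array of 5 members with widely spread control arrays, chosen after their values were seen, with the mean and SD of 3 arrays. Control array 1 (leftmost point) is far above the other control arrays for AKR1C1 and GSTA1, and control array 3 (rightmost) is lowest for NQO1 and AKR1E2.

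The choice of probe mattered for several genes. Among the 21 genes with 3 or more tested probes, the chosen probe gave the lowest log2 fold change of the gene's probes for SOD1, GPX1, GCLM, MGST1 and GSTA2, and the highest for GPX4, PRDX4, TXNRD1, GSS, HMOX1 and AKR1A1. With each array's median level over a gene's probes in place of its chosen probe, 28 members passed the test, of which 23 also passed on the chosen probe.

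**Figure D4:**
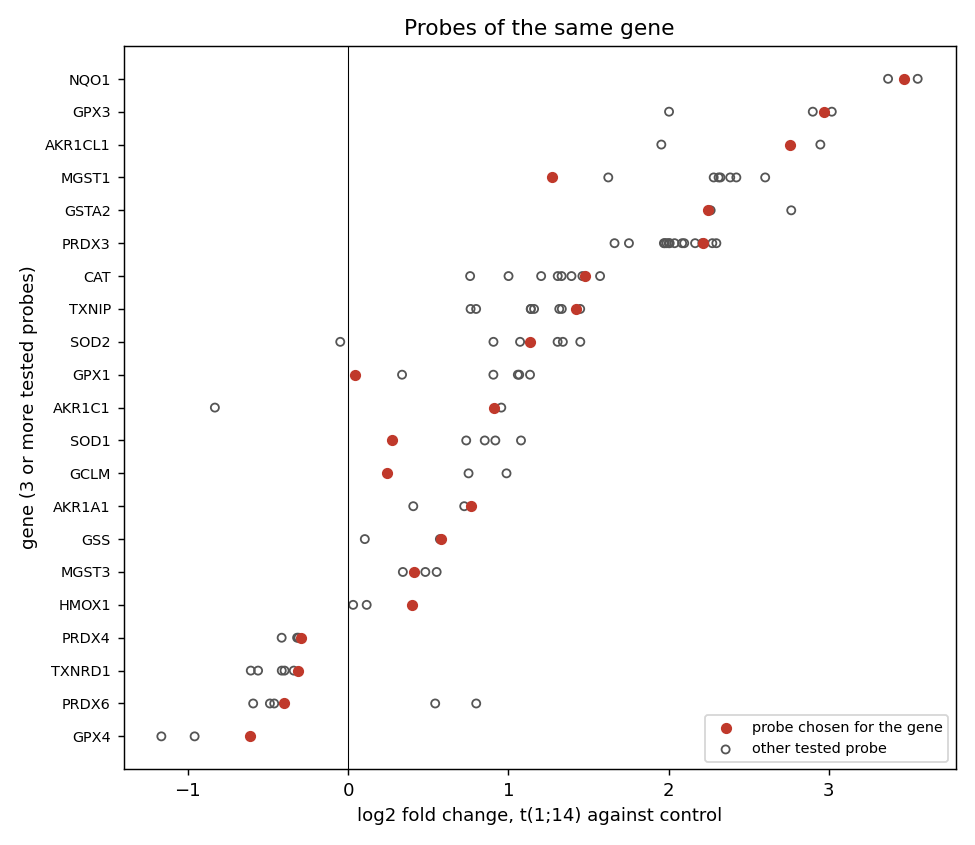
Log2 fold change between t(1;14) and control for every tested probe of the 21 genes with 3 or more tested probes, ordered by their median. Filled points are the probes chosen for the gene. The 15 PRDX3 probes lie together, while PRDX6 has probes on both sides of 0.

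Between the oligospermic boar and control, none of the 43 members passed an adjusted p of 0.01 in limma, against 0.156% of named genes, and 7 had an unadjusted p under 0.05, which 13.9% of named genes had. The smallest adjusted p of the set was that of GSTA2, which was 1.01 ± 0.18 higher (adjusted p = 0.043). The groups did not overlap for 6 members (16.7% of named genes), GSTA2 and GCLM (0.36 ± 0.15) higher and CBR1 (-0.60 ± 0.14), HMOX1 (-0.86 ± 0.27), MGST1 (-0.29 ± 0.12) and PRDX6 (-0.27 ± 0.11) lower. For MGST1 this held on the chosen probe alone, and its 7 other probes were higher in the oligospermic boar, the 8 probes having a median of 0.53. For GCLM the other probes gave 0.01 and -0.15. The median over the members was -0.04.

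Between t(1;14) and the oligospermic boar, 28 members passed the test, 24 higher and 4 lower in t(1;14), against 47.3% of named genes (23.4% higher and 23.9% lower). This comparison shares the t(1;14) arrays with the first. NQO1 (3.64 ± 0.73), GPX3 (3.52 ± 0.24), GSR (2.60 ± 0.15), AKR1C4 (2.50 ± 0.28), AKR1CL1 (2.24 ± 0.24), TXNIP (2.09 ± 0.26) and CBR1 (2.03 ± 0.14) also passed a log2 fold change of 2. With arrays left out in turn this count of 7 ranged from 4, without t(1;14) array 2 or oligospermic array 3, to 11 without oligospermic array 1, and was 10 without t(1;14) array 1. HMOX1 was higher by 1.26 ± 0.27 on its brightest probe and by 0.34 and 1.13 on its other probes, which did not pass, and it missed the threshold in 6 alternatives. Of all named genes tested, 1.91% were higher past both thresholds. The 4 lower members were TXNDC8 (-1.54), TXNRD1 (-0.49), AKR1B1 (-0.38) and GPX4. As its spots were saturated on the oligospermic arrays, GPX4 was lower in t(1;14) by an estimated 1.48-fold or more, with its own error (-0.57 ± 0.13). The GPX4 probe that was not saturated on any array gave -1.16 (limma adjusted p = 7.8e-05). The call of AKR1B1 was lost in 11 alternatives, slide as a block and the replicate block among them, that of TXNRD1 in 7 and that of GPX4 in 6. Among the higher members TXNL4A lost its call in 9 alternatives, GSTK1 in 7 and NQO1, GSTP1 and GSS in 4 each.

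By their RefSeq names, 4 members lie on chromosome 1 and 3 on chromosome 14, the chromosomes of the translocation. SOD2, TXN and TXNL1 on chromosome 1 rose and TXNDC8 fell, and PRDX3, GSTO1 and TXNRD2 on chromosome 14 rose. PRDX4, on the X chromosome, did not pass. Over all named genes tested, 20.9% passed as higher and 22.3% as lower. The members were picked by gene symbol and do not stand for their chromosomes. The paper describes the differential probes of both rearranged chromosomes as mostly down-regulated. Whether the members differ from other genes of the same chromosomes was not tested.

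Other genes of the same pathways were read from a list of 62, of which 36 were on the array and 33 were tested. Between t(1;14) and control 16 were higher and 4 lower, with a median log2 fold change of 0.49, beside 20.9% higher and 22.3% lower and a median of 0.07 over all named genes. Among the 7 tested genes that supply NADPH, ME1, the cytosolic malic enzyme, rose by 2.96, PGD of the pentose phosphate pathway by 1.78 and TKT by 1.39, while IDH2, the mitochondrial isocitrate dehydrogenase, fell by 1.42. Of the 3 tested genes of NRF2 control none passed. NFE2L2, which encodes NRF2, gave 0.29, its inhibitor KEAP1 -0.35, and MAFF, a partner of NRF2 on DNA, -1.54 with an adjusted p of 0.023 in limma. None of the t(1;14) arrays had MAFF well above background, so its level there is only a bound. Of the 3 tested genes of oxidant sources, DUOX2, an oxidase that makes hydrogen peroxide, rose by 3.25, CYBA, a subunit of the NADPH oxidases, rose by 1.20 and DUOX1, the sister enzyme of DUOX2, fell by 0.92. The lower level of both DUOX genes was near the lower end of the signals. DUOX2 was well above background on 2 of 3 control arrays (mean 4.06) and DUOX1 on 2 of 3 t(1;14) arrays (mean 3.95). Of the 4 tested genes of glutaredoxins and methionine sulfoxide reductases, GLRX5 rose by 1.15 and MSRA, which repairs oxidized methionine, fell by 1.40. Of the 9 tested genes of other detoxication 6 rose, SELENBP1 (2.21) and EPHX1 (2.14) the most, and SESN2 fell by 0.94. Of the 7 tested genes of glutathione breakdown and precursors 2 rose and none fell.

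Some marker genes of the cell types of the testis also passed the test between t(1;14) and control, where 43.2% of all named genes did. Of the 10 tested Leydig cell genes 8 rose in t(1;14) and none fell, and their mean log2 level was 10.56 to 10.70 on the control arrays, 12.27 to 12.36 on the t(1;14) arrays and 10.60 to 10.93 on the oligospermic arrays. Of the 7 tested spermatid genes 5 fell and none rose, with a mean level of 14.23 to 14.46 in control and 12.93 to 12.94 in t(1;14). Of 8 peritubular and vascular genes 2 rose and 1 fell, of 7 Sertoli cell genes 2 fell, of 4 spermatogonial genes 2 rose, of 6 spermatocyte genes 2 rose and 2 fell, and of 4 immune genes 1 rose. The part of these shifts in the results on the enzymes was not tested.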

How the data were processed

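Testis RNA was hybridized by the authors to a porcine single-colour array and read with Agilent Feature Extraction 11.5.1.1. The deposited spot values are processed signals in intensity units, background-subtracted by that software. A second deposited table holds log2 values of 38759 of the 60889 probes. Here log2 intensities of all 9 arrays were quantile normalized together in limma 3.58.1 (R 4.3.3). Probes well above background without an outlier flag on at least 2 of 3 arrays of a group (41105) were fitted with lmFit and eBayes, and p was adjusted by Benjamini-Hochberg within each comparison. The methods require an adjusted p of 0.01 and a log2 fold change of 2 together. Here members were called on the adjusted p alone, and those that met both are counted separately. Spots with an outlier flag were left out of the fit. The planned design used the flags only to filter probes, and this choice was made after values had been seen, so the effect on CAT is given both ways. The members and lists were chosen with earlier results of these data known. Named in full were members past both thresholds, the largest called changes and textbook enzymes. Each slide held 1 array of each group. Replicate numbers of control and oligospermic arrays coincide with slides. The deviations of their same-numbered arrays from the group means correlated at 0.101 to 0.478, where replicate number and slide cannot be told apart. The t(1;14) numbers do not coincide with slides. Its deviations correlated with those of same-numbered arrays at -0.421 to 0.139, and of arrays on the same slide at 0.109 to 0.339 (control) and 0.292 to 0.489 (oligospermic). Slide is not in the fit reported here, and was a block in an alternative. The fit was tested on simulated data. The number of arrays limits the precision. RefSeq names (Sscrofa11.1) matched 43 of 46 members. AKR1C4, GSTA2 and GSTP1, all called higher in t(1;14) against control, had no match and keep the gene name given on the array.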

Additional observations from a re-analysis of the deposited data

How the results depend on the processing

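The count of members called between t(1;14) and control was 24 and lay between 19 and 31 with each array left out in turn, that between t(1;14) and the oligospermic boar was 28 (19 to 30), and that between the oligospermic boar and control was 0 (0 to 1). The 1 was GSTA2, without control array 3 and also at an adjusted p of 0.05. Control array 1 set the upper end of the first count (31 without it). With the replicate number as a block the counts were 21, 23 and 0, and with slide as a block 25, 28 and 0. Neither changed a call between the oligospermic boar and control, where replicate number and slide coincide. Normalizing the 6 arrays of a comparison by themselves gave 19, 29 and 0, and the deposited log2 values gave 25, 29 and 0. Requiring a log2 fold change of at least 1 left 17 members between t(1;14) and the oligospermic boar, and of at least 2 left 8 against control and 7 against the oligospermic boar. Keeping the spots with an outlier flag, an alternative chosen after seeing the data, left the counts at 24, 28 and 0, but raised the members past a log2 fold change of 2 from 8 to 9 and from 7 to 8 through CAT.

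Alternatives are given for all 43 tested members between t(1;14) and control, the 6 without overlap between the oligospermic boar and control and the 28 called between t(1;14) and the oligospermic boar. Among them 13 alternative values of 7 members changed sign, none called in either fit. Over all 43 members, 44 values changed sign between the oligospermic boar and control, none called in either fit, and 6 between t(1;14) and the oligospermic boar. Of these 6, GPX1 and GCLM became called with the median level over probes, GPX1 from -0.18 to 0.87 (adjusted p = 0.0019) and GCLM from -0.11 to 0.90 (adjusted p = 0.0053). Against control in t(1;14) these were, with scaling to the 75th percentile, GPX1 (-0.15) and MT1A (-0.069), and with each array's median level over probes AKR1C1 (-0.83, its probe of middle level, while the 3 probes' fold changes have a median of 0.91). With arrays left out in turn, GPX1 ranged from -0.43 to 0.30, GSTA1 from -0.59 to 1.32, MT1A from -0.10 to 0.29, AKR1C1 from -0.21 to 2.68 and AKR1E2 from -0.29 to 0.44. Without control array 1 GPX1 gave -0.43, without control array 2 GSTA1 gave -0.38, and without control array 3 GSTA1 gave -0.59, MT1A -0.10, AKR1C1 -0.21 and AKR1E2 -0.29. GPX1 gave -0.08 without t(1;14) array 1 and -0.10 without array 3. Between the oligospermic boar and control, the median level over probes gave -0.15 for GCLM and 0.53 for MGST1. NQO1 missed the threshold in 4 alternatives (3.38 to 3.62, adjusted p up to 0.016) and ranged from 2.46 to 4.18 over all alternatives, and GPX4 in 6. The causes were not tested. The precision is limited by 3 arrays a group and by control arrays that spread more (median SD 0.24 over all tested probes and 0.20 over the members) than t(1;14) arrays (0.13 and 0.096).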
